A study of Mus musculus with 5 samples.

Results

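Receptor genes through which transmitters and other modulators can act on olfactory sensory neurons were examined in neurons that transcribe *Olfr151* (*M71*), an odorant receptor (OR) gene whose product responds to acetophenone. They are 7 of the 55411 genes in the count tables, taken by name: *Drd2*, *Gabbr1*, *Gabbr2*, the muscarinic acetylcholine receptor gene *Chrm3*, the adenosine receptor gene *Adora1*, and *Gpr27* and *Gpr85*, which encode orphan receptors of the SREB family. The choice covers dopamine, GABA, acetylcholine and adenosine, and receptors for noradrenaline were considered with the other receptor genes further on. Olfactory sensory neurons send their axons into the olfactory bulb, where their terminals carry receptors for the transmitters that local cells release. In such a presynaptic position, a G protein-coupled receptor of the Gi/o class lowers calcium entry and with it the release of glutamate. The GABA-B receptor, built from the products of *Gabbr1* and *Gabbr2*, and the dopamine D2 receptor, encoded by *Drd2*, are the textbook examples of this control in the olfactory nerve.

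All mice were 7 weeks old, male by the study's methods, and homozygous for the knock-in allele Olfr151tm26Mom (Olfr151 GFP/GFP), in which GFP is made from the same transcript as the receptor, so that controls and exposed mice shared this modified allele. Freely moving mice were kept for 5 h with 5% acetophenone in DMSO (exposed) or with DMSO alone (control), and GFP-positive cells that took up the nuclear dye Hoechst and excluded the dead-cell dye DRAQ7, as the labels give the gate, were sorted from the main olfactory epithelium. Each library came from a pool of 4 mice, with 200 sorted cells per pool by the study's methods and one field of the labels, while another field gives 400. Control pools 1, 2 and 3 and exposed pools 1 and 3 were compared, and exposed pool 2 was not analysed here. Values per pool are always listed in this order, and every statement on exposed neurons rests on 2 pools. A pool is a bulk sample, so a smaller number of cells that transcribe a gene and less of its RNA in each cell cannot be told apart.

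The libraries held 42780403 to 49527380 counted reads, of which 0.249% to 0.631% were spike-in RNAs. The markers of mature neurons were abundant in all of them, with 9 of 9 genes tested, a summed level of 68279 to 77671 TPM (transcript abundance, counts divided by exon length and scaled to an equal total per library) in control and 56177 to 56198 TPM in exposed pools, and 3 of them called lower (*Cnga2*, *Cnga4* and *Rtp1*). Transcripts of other cells were present at lower levels. The summed erythroid markers ran from 57.3 to 1454 TPM in control pools, highest in pool 1, and from 26.9 to 60.7 TPM in exposed pools. Myeloid markers ran from 45.1 to 343 and from 199 to 351 TPM, with 1 of 9 (*Fcer1g*) called higher, and sustentacular markers from 169 to 626 and from 257 to 517 TPM. The summed markers of immature neurons (619 to 797 and 596 to 675 TPM), microvillar cells (16.4 to 74.6 and 16.4 to 20.6 TPM), glands (14.4 to 39.6 and 8.61 to 10.1 TPM) and ensheathing glia (12.0 to 22.7 and 7.00 to 9.73 TPM) ran over the ranges given, control pools first. Of the 6 immature neuron markers 4 were tested, and *Gap43* was called higher while *Stmn4* was called lower. Basal cell markers stayed at or under 3.55 TPM, and the endothelial markers summed to 1.71 to 4.00 and 2.56 to 2.76 TPM, all from *Pecam1*, since *Cdh5* and *Kdr* had no count in any library.

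The 7 genes fell into 3 classes of abundance. *Drd2*, *Gabbr1* and *Gabbr2* passed the threshold of 140 counts in all 5 libraries, *Gpr27* passed it in the 3 control pools alone, and the others did not: *Gpr85* reached it in 1 library, and *Adora1* and *Chrm3* were near or at the limit of detection. Genes entered the test when every library of at least 1 condition reached this threshold, so 4 of the 7 were tested among 10055 genes, and *Gpr27* entered through the control pools alone. One of the 4, *Gpr27*, was called lower in exposed neurons and 0 were called higher, where a gene was called at an adjusted p under 0.1 if its log2 fold change was beyond 0.5 in either direction. Over all genes tested, 5.27% were called in either direction, 1.85% were called lower (186 genes) and 3.42% were called higher (344 genes). The values of control and exposed pools did not overlap for 3 of the 4 tested receptor genes, which is to be read against 40.0% of all genes tested.

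**Figure D1:**
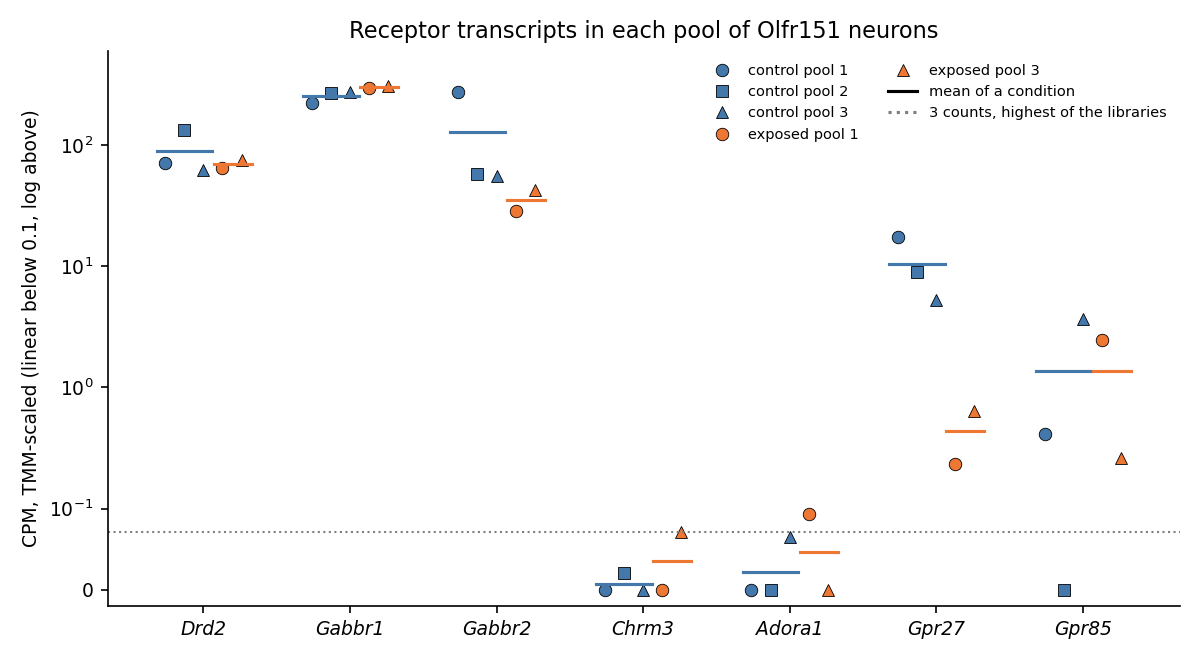
Level of the 7 receptor genes in each pool, as CPM with TMM scaling (vertical axis, linear below 0.1 and logarithmic above). Symbols are pools, horizontal bars are the means of 3 control and 2 exposed pools, and the dotted line is the level of 3 counts; *Gpr27* sits between 5.30 and 17.3 in control pools and at 0.233 and 0.646 in exposed pools, while *Chrm3* and *Adora1* lie around the line of 3 counts.

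The D2 receptor gene was among the more abundant transcripts of these neurons. *Drd2* (ENSMUSG00000032259, GRCm38 chr9:49340627-49408177, plus strand, 8 exonic blocks) had 3109, 6556 and 2861 counts in the controls against 2768 and 3121 after exposure. Its TPM exceeded that of 80.8% to 91.4% of the genes tested in the control pools, and of 81.1% and 83.8% in the exposed pools. The groups overlapped, since after scaling both exposed pools were within the range of the control pools, and control pool 2 stood 2.14 times above control pool 3. The mean level was 121 ± 58.9 TPM (SD, n = 3) without and 83.9 ± 12.1 TPM (SD, n = 2) with acetophenone. The log2 fold change of -0.35 (SE 0.35, 95% interval -1.18 to 0.48) did not pass the quasi-likelihood test of edgeR (Benjamini-Hochberg adjusted p = 0.639). Without control pool 2 the estimate turned to 0.06, so no direction can be given for *Drd2*.

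Of the subunit genes of the GABA-B receptor, *Gabbr1* was even across the pools and *Gabbr2* was not. *Gabbr1*, which encodes the subunit that binds GABA, is at GRCm38 chr17:37045966-37075067 on the plus strand (ENSMUSG00000024462, 22 exonic blocks). It had 9753, 13297 and 12559 counts in the controls against 12638 and 12900 after exposure. After scaling, the exposed pools (295 and 309 CPM, counts scaled to an equal library total) were above the control pools (224, 269 and 272 CPM), with little spread in either condition. The log2 fold change was 0.24 (SE 0.15, 95% interval -0.11 to 0.59) and was not called in the quasi-likelihood test of edgeR (Benjamini-Hochberg adjusted p = 0.426). When libraries were scaled on the spike-in RNAs the estimate was 0.00 (SE 0.73), too imprecise to show whether the gap between the groups depends on the scaling.

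*Gabbr2* encodes the subunit that brings the receptor to the cell surface and couples it to G proteins, and lies at GRCm38 chr4:46662305-46991873 on the minus strand (ENSMUSG00000039809, 21 exonic blocks). The controls had 11877, 2859 and 2589 counts, and 1220 and 1772 were found after exposure. Both exposed pools were lower than every control pool, and control pool 1 was 4.88 times higher than control pool 3 in CPM, a spread among control pools larger than that of 95.2% of the genes tested (median 1.52 over 9945 genes). The log2 fold change was -1.86 (SE 0.79, 95% interval -3.78 to 0.05), which was not called in the quasi-likelihood test of edgeR (Benjamini-Hochberg adjusted p = 0.273). It was -0.68 without control pool 1 (edgeR, adjusted p = 0.274) and -0.24 after the shrinkage of DESeq2 and apeglm, and the adjusted p ran from 0.141 to 0.763 over the 16 alternatives. Control pool 1 was also the pool with the most erythroid (1454 TPM summed over 5 genes) and sustentacular (626 TPM summed over 6 genes) transcripts; their part in the *Gabbr2* value was not tested.

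Since both subunits are needed for a working receptor at the surface, their transcripts were also compared within each library, per exon length. The ratio of *Gabbr1* to *Gabbr2* was 0.707, 4.01 and 4.18 in the controls and 8.92 and 6.27 after exposure. *Gabbr2* was therefore the more abundant of the pair in control pool 1 alone, and *Gabbr1* in the other 4 libraries. The mean log2 ratio was 1.19 ± 1.46 (SD, n = 3) without and 2.90 ± 0.36 (SD, n = 2) with acetophenone, a difference of 1.71 that gave p = 0.3 in a two-sided exact permutation test, whose smallest possible value with these groups is 0.1. Leaving out 1 library at a time, the difference ran from 0.87, without control pool 1, to 2.15.

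**Figure D2:**
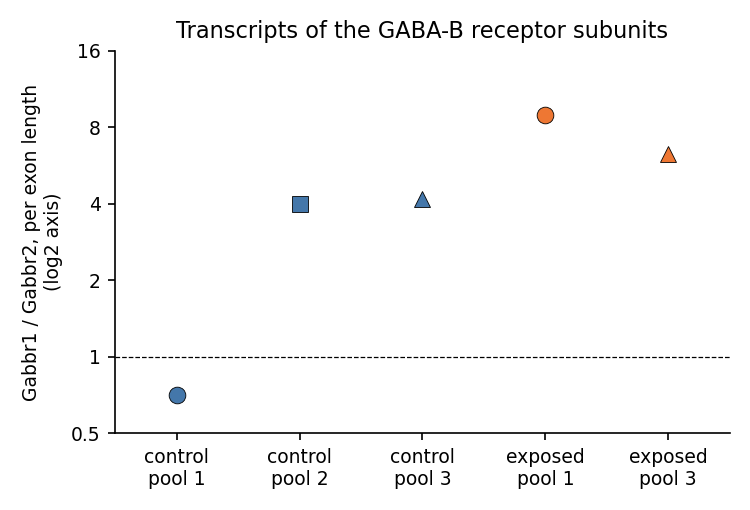
Ratio of *Gabbr1* to *Gabbr2* transcripts per exon length in each pool, on a log2 axis, with the dashed line at equal abundance. Control pool 1 lies below the line at 0.707, control pools 2 and 3 at 4.01 and 4.18, and exposed pools 1 and 3 at 8.92 and 6.27.

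*Gpr27* was the receptor gene called lower. It is a single-exon gene at GRCm38 chr6:99692679-99695066 on the plus strand (ENSMUSG00000072875) and encodes an orphan receptor, that is one without an established ligand. It had 752, 445 and 245 counts in the controls against 10 and 27 after exposure. Every control pool was far above both exposed pools, although the control pools differed from each other by 3.26-fold in CPM. That spread among control pools was larger than that of 90.7% of the genes tested. The mean level was 14.9 ± 7.88 TPM (SD, n = 3) without acetophenone and 0.572 ± 0.398 TPM (SD, n = 2) after it. Its TPM exceeded that of 20.1% to 49.8% of the genes tested in control pools, and of 0.497% and 0.577% after exposure. *Gpr27* entered the test through its control pools alone, so high control values were a condition of being tested. The percentiles and the adjusted p make no allowance for this, nor for the choice of the gene with earlier results known. The estimated log2 fold change of *Gpr27* was -4.58 (SE 0.86, 95% interval -6.61 to -2.55), a level 23.8 times lower in exposed neurons. It was called in the quasi-likelihood test of edgeR (Benjamini-Hochberg adjusted p = 0.0444).

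The direction for *Gpr27* was the same in all 16 alternatives, with log2 fold changes of -5.48 to -4.02, and the call was kept in 11 of them, with adjusted p-values of 2.21e-06 (DESeq2) to 0.298 over the 16. It was lost without control pool 2 (edgeR, adjusted p = 0.122), without exposed pool 1 (0.265) and without exposed pool 3 (0.110), and also with filterByExpr as the filter on low counts (0.128) and with the pool number as a block (0.298). Between the pools the summed erythroid markers took the same order in control pools as *Gpr27*, with 1454, 507 and 57.3 TPM there and 60.7 and 26.9 TPM after exposure. The summed markers of mature neurons were lower in both exposed pools (56198 and 56177 TPM) than in every control pool (at least 68279 TPM). Of these 9 markers, 3 were called lower and 6 were not. Among the 6, *Stoml3*, *Ano2* and *Slc17a6* had log2 fold changes of 0.09, -0.01 and -0.02. The sum therefore cannot be read as the share of mature neurons in a pool. The part of the erythroid and mature neuron transcripts in the *Gpr27* value was not tested.

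**Figure D3:**
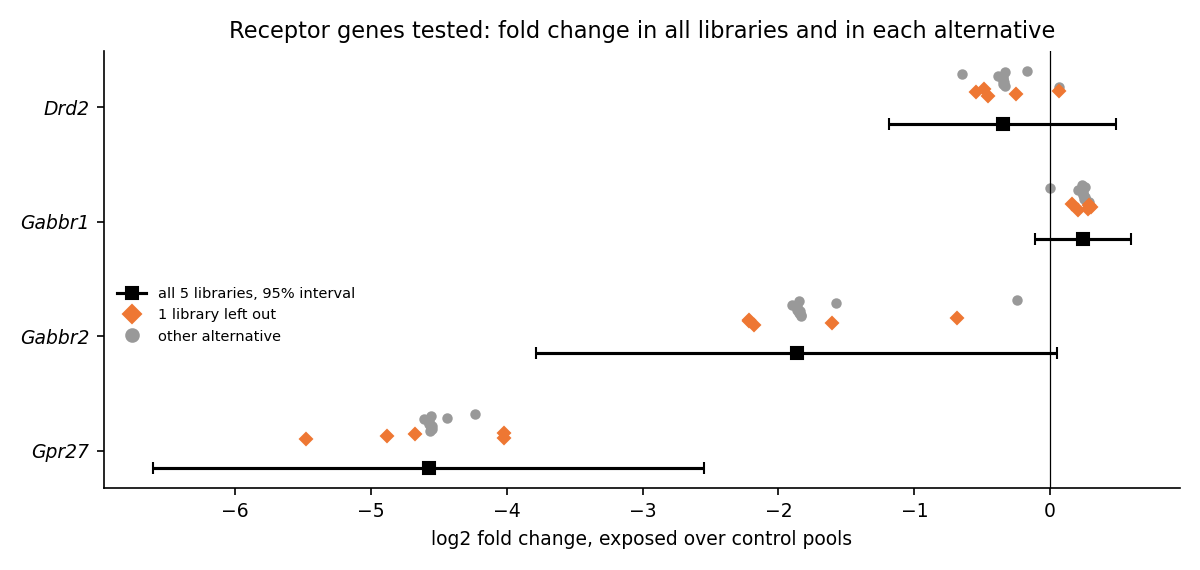
Log2 fold change of exposed over control pools for the 4 receptor genes tested. Squares with bars are the estimates and 95% intervals from all 5 libraries, diamonds leave out 1 library each, and circles are the other alternatives; *Gpr27* stays between -5.48 and -4.02, and *Drd2* and *Gabbr1* lie around 0.

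*Gpr85*, the relative of *Gpr27* in the SREB family (super conserved receptor expressed in brain), was counted unevenly, with no count in 1 of the control pools. *Gpr85* (ENSMUSG00000048216, GRCm38 chr6:13834458-13839942, minus strand, 6 exonic blocks) had 18, 0 and 169 counts in the controls against 105 and 11 after exposure. Neither condition was higher throughout, and the gene was not tested at the threshold of 140 counts. When the filter was lowered to 10 counts, its log2 fold change was 0.00 (SE 2.05, 95% interval -5.01 to 5.01), an interval too wide to show even a large change. The remaining family member, *Gpr173*, which was not part of the choice, had 171, 74 and 80 counts in the controls against 211 and 158 after exposure. These groups overlapped, and the log2 fold change of 0.87 (SE 0.65) was not called in the quasi-likelihood test of edgeR (Benjamini-Hochberg adjusted p = 0.513). A gene antisense to *Gpr173* (*3010001F23Rik*) shares 122 exon bases with it, and reads were counted without strand.

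The receptors of this family are close relatives, and the reads were 50 bases long, so the coding sequences were compared to see whether reads of one gene could have been counted for another. *Gpr27* and *Gpr85* were identical at 59.2% of aligned coding bases with a longest identical run of 12 bases, *Gpr27* and *Gpr173* at 64.7% with a run of 21, and *Gpr85* and *Gpr173* at 66.1% with a run of 18. A stretch in which the family is much alike is shown here, since reads from it would be the hardest to assign; capitals mark the 80 of 120 bases identical in the 3 genes (GRCm38, coding strand, 5′ to 3′).
Gpr27: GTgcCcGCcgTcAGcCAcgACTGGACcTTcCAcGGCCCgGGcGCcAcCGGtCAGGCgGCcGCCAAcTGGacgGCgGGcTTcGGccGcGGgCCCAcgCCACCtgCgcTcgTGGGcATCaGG
Gpr85: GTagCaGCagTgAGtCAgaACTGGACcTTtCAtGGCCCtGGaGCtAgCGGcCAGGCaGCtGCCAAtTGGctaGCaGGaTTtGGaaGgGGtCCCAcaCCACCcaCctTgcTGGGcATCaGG
Gpr173: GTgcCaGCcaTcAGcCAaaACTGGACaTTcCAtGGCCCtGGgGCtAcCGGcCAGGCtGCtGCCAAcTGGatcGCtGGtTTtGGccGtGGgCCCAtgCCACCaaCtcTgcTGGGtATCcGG
The stretches lie at chr6:99693348-99693467 (plus strand, coding bases 670 to 789), chr6:13836124-13836243 (minus strand, 661 to 780) and chrX:152346690-152346809 (minus strand, 667 to 786). Over whole transcripts and by exact match, 0 of 2339 windows of 50 bases of *Gpr27* and 0 of 4031 of *Gpr85* occurred in any other gene.

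The muscarinic M3 and adenosine A1 receptor genes had at most 3 and 4 counts in any library, at or next to the limit that the depth sets. *Chrm3* (ENSMUSG00000046159, GRCm38 chr13:9875486-10360847, minus strand) had 0, 1 and 0 counts in the controls against 0 and 3 after exposure. *Adora1* (ENSMUSG00000042429, GRCm38 chr1:134199223-134235431, minus strand) had 0, 0 and 3 counts in the controls against 4 and 0 after exposure. A count of 0 allows up to 3 counts, that is 0.0607 to 0.0718 CPM in these libraries. The gene *Mybph* lies on the other strand of *Adora1* and shares 1162 exon bases with it, so reads there belong to neither gene in the authors' counting, and *Mybph* had 0 counts in every library.

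By mean TPM in control pools the order was *Drd2*, *Gabbr1*, *Gabbr2*, *Gpr27*, *Gpr85*, *Adora1* and *Chrm3*. The ranges of neighbours in this order did not overlap for *Gabbr2* and *Gpr27* (29.0 to 132 against 7.70 to 23.3 TPM) or for *Gpr27* and *Gpr85* (at most 3.10 TPM), and they overlapped for all other neighbours. In particular, *Drd2*, *Gabbr1* and *Gabbr2* had no order beyond their spread.

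The genes whose levels followed each receptor gene most closely were sought among the genes tested, by the root mean square distance between log2 deviations from the mean over the 5 libraries. For *Gabbr1* they were *Mia3* (0.03), *Uba1* (0.03) and *Cdc16* (0.03), and for *Drd2* they were *Mmab* (0.07), *Tnks* (0.10) and *Tldc1* (0.12). *Gabbr2*, high in control pool 1, was followed by *Snx25* (0.17), *Rnf157* (0.20) and *Kmt5a* (0.27), all of which were also highest in that pool. The nearest genes to *Gpr27* were *Lrp6* (0.44), *Mgat5b* (0.45) and *Cuedc1* (0.46). All were lower after exposure too (log2 fold changes of -3.40, -3.33 and -2.91), which a search by pattern favours. The distances are not scaled to how much a gene varies, so they cannot be compared between receptor genes. With 5 libraries these distances are a description of the libraries only.

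Other receptors for the same transmitters were scarce. Of 20 further genes for dopamine, noradrenaline, muscarinic acetylcholine and adenosine receptors, 0 reached the test, 10 had no count in any library and 13 never exceeded 3 counts. Of those counted, *Adora2b* and *Adora2a* (adenosine receptors) and *Drd4* (a dopamine receptor) were each counted mostly in 1 library, with at most 55, 19 and 28 counts. Of the 25 receptor genes for these transmitters, chosen genes included, *Drd2*, *Gabbr1* and *Gabbr2* were the 3 that reached 140 counts in every library.

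Receptors for other modulators were equally sparse, since 0 of 44 such genes (for serotonin, peptides, opioids, cannabinoids, purines and the like) were tested, 24 had no count and 27 never exceeded 3 counts. The 4 most abundant are described. *Galr3*, a galanin receptor gene, had 28, 54 and 18 counts in the controls against 1 and 18 after exposure. *Oprd1*, the delta opioid receptor gene, had 103, 72 and 68 counts in the controls against 0 and 88 after exposure. *P2ry2*, a nucleotide receptor gene, reached 275 counts in exposed pool 3 and had 0 in all 3 control pools and 27 in exposed pool 1. *Sstr2*, a somatostatin receptor gene, reached 124 counts in the same exposed pool. Of these 4, *Galr3* alone was counted in all 5 libraries, and the pools of the 2 conditions overlapped for *Galr3*, *Oprd1* and *Sstr2*.

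The G proteins and partners through which D2 and GABA-B receptors act were better represented. Of 20 such genes, 8 were tested, 1 was called lower (against 1.85% of all genes tested) and 0 were called higher, with a median log2 fold change of 0.19 beside -0.03 over all genes tested. The gene called lower was *Gnaz*, which encodes Gz, a pertussis toxin-insensitive alpha subunit of the Gi class. *Gnaz* had 1458, 1641 and 1509 counts in the controls against 613 and 621 after exposure. The pools of each condition lay close together and the groups did not overlap, with 31.5 ± 1.76 TPM (SD, n = 3) without and 12.4 ± 0.857 TPM (SD, n = 2) with acetophenone. The log2 fold change was -1.18 (SE 0.28, 95% interval -1.84 to -0.53; quasi-likelihood test of edgeR, Benjamini-Hochberg adjusted p = 0.0815). The value stayed between -1.39 and -1.06 in the 16 alternatives, but the call was lost in 11 of them, among them the omission of any 1 of the 5 libraries (edgeR, adjusted p = 0.126 to 0.367). Over all alternatives its adjusted p ran from 0.00025, with DESeq2, to 0.9996, with edgeR on spike-in scaling.

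Among the partners that were not called, *App*, whose product binds the GABA-B receptor, had the highest level, with 452 ± 49.9 TPM (SD, n = 3) without and 479 ± 27.2 TPM (SD, n = 2) with acetophenone. *Gnao1*, the gene of the Go alpha subunit, had 87.0 ± 19.6 TPM (SD, n = 3) and 91.2 ± 4.86 TPM (SD, n = 2). *Gnai3*, a Gi alpha subunit gene, had 503, 1295 and 656 counts in the controls against 1379 and 1423 after exposure. Its groups did not overlap, as for 40.0% of all genes tested, and its log2 fold change was 0.93 (SE 0.41). For *Gnai2*, *Cacna1b* and *Ncs1*, whose groups overlapped, the log2 fold changes were 0.75, 0.07 and -0.46. *Kctd16*, which encodes an auxiliary subunit of the GABA-B receptor, had 53.3 ± 14.6 TPM (SD, n = 3) and 51.4 ± 9.12 TPM (SD, n = 2). Its relatives were rare: *Kctd12* had 245 counts in control pool 1, 45 and 96 in exposed pools 1 and 3 and 0 in the others, *Kctd8* had 55 counts in exposed pool 1 alone, and *Kctd12b* had none. The potassium channel genes *Kcnj3* and *Kcnj9*, common targets of these receptors elsewhere in the brain, and *Pianp* had no count in any library. Of the related channel genes, *Kcnj5* had 3, 135 and 89 counts in the controls against 0 and 0 after exposure, and *Kcnj6* had 18, 0 and 1 against 0 and 0; neither was tested.

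**Figure D4:**
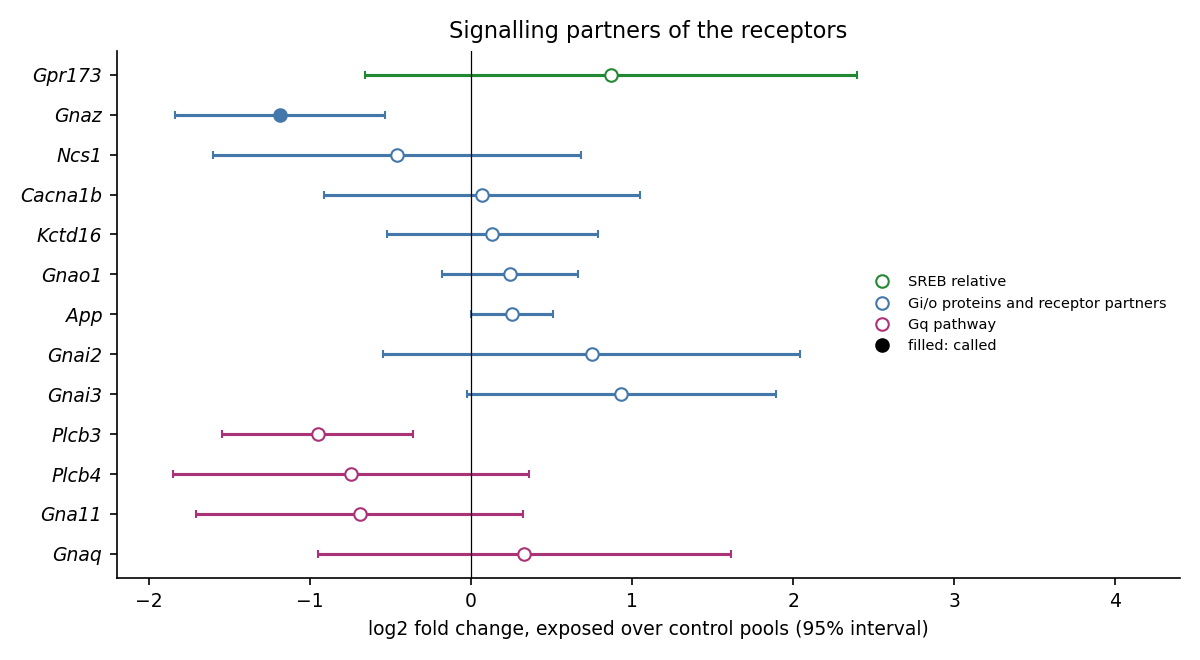
Log2 fold change of exposed over control pools, with 95% intervals, for the tested genes of the SREB relative (green), Gi/o proteins and receptor partners (blue) and the Gq pathway (purple). The filled point is *Gnaz* at -1.18, the one gene called; *Plcb3* at -0.95 has an interval below 0 and was not called.

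Of 10 genes of the Gq pathway, which muscarinic M3 receptors use, 4 were tested and 0 were called by edgeR in either direction, with a median log2 fold change of -0.72 (-0.03 over all genes tested). *Plcb3*, a phospholipase C gene, had 3086, 4657 and 3789 counts in the controls against 1534 and 2063 after exposure. The groups did not overlap, and the log2 fold change of -0.95 (SE 0.25, 95% interval -1.55 to -0.36) missed the threshold in the quasi-likelihood test of edgeR (Benjamini-Hochberg adjusted p = 0.112). DESeq2, which called 13.8% of all genes tested, called it lower (DESeq2 adjusted p = 0.00875, the lowest of the 16 alternatives). *Plcb4*, *Gna11* and *Gnaq* had log2 fold changes of -0.75, -0.69 and 0.33, each with a 95% interval that includes 0.

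The promoter windows of the receptor genes were searched on both strands for TGACGTCA (the full cAMP response element), TGACG (its core, which the full element also contains) and TGACTCA (an AP-1 site), the binding sequences of factors that respond to neuronal activity. The windows span 300 bases around each annotated start, on the GRCm38.p6 assembly of RefSeq. None of the 7 windows, which belong to 6 of the genes, held any of these letters, where 1.79%, 20.8% and 5.20% of 32851 promoter windows of the same 300 bases did. A missing match says only that these letters are not in the window. No window was at hand for *Gpr27*, the receptor gene called lower.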

How the data were processed

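Neurons transcribing *Olfr151* were sorted from pools of 4 mice, and their polyadenylated RNA was amplified as cDNA in 12 PCR cycles and read in single reads of 50 bases. Per the submitters' processing notes and the study's methods, the authors mapped reads with STAR 2.7.0a on GRCm38 and made the deposited raw counts per gene with featureCounts 1.6.3, without strand, without multi-mapping reads and without reads on several genes. They tested genes with DESeq2 1.30.1 in R 4.0.3.

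Counts were analysed as deposited in R 4.3.3 with edgeR 4.0.16 (TMM scaling, glmQLFit with robust estimation, glmQLFTest), with condition as the only factor and 5 libraries. Spike-in RNAs, 0.249% to 0.631% of the counts, were left out of library sizes and tests. Genes with at least 140 counts (the dip between background and expressed genes in the distribution of log2 counts) in every library of 1 condition were tested, with Benjamini-Hochberg adjustment over all 10055. Levels between genes were compared in TPM, computed from the counts and exon lengths in the files. Alternatives were DESeq2 1.42.0 with apeglm 1.24.0, other scalings (size factors, spike-ins, totals), filters and thresholds, the pool number as a block, and each library left out. In counts simulated for this comparison, 9653 genes were tested, among them 191 of the 200 genes that were changed. Of the changed genes that were tested, calls recovered 26.1%, 77.1%, 95.7% and 98.0% at 2-, 4-, 8- and 16-fold. A further 7 calls fell on unchanged genes. The simulated spread between pools was the trend over all genes at a given level. These shares therefore do not cover genes more uneven than that, such as *Gabbr2* with its spread among control pools. Whether they hold for *Gpr27*, whose control pools differed more than those of 90.7% of the genes tested, was not tested.

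The receptor genes and all gene lists were chosen with earlier results of these data known. Every chosen receptor gene is described; of each list, the called genes or otherwise the 4 with the highest TPM are named, with the 3 nearest genes by pattern. Some genes that this rule selects are not reported here. *App*, *Gnao1*, *Gnai3*, *Gnai2*, *Cacna1b*, *Ncs1*, *Kctd16* and its relatives, and *Kcnj5* and *Kcnj6*, were named after their values were seen. Gene positions and names are from GENCODE M21, the promoter windows from RefSeq (GRCm38.p6). A floor is 3 counts, and floors cover counting error only, since the reads carry no molecular identifiers. The pools came from different mice, handled on 3 days with both conditions on each, and p-values measure the spread between these pools.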

Additional observations from a re-analysis of the deposited data

How the results depend on the processing

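The number of chosen receptor genes called lower was 1 in the analysis reported and in 11 of 16 alternatives, and 0 with filterByExpr as the filter, with the pool number as a replicate block, and without control pool 2, exposed pool 1 or exposed pool 3 (range 0 to 1 when 1 library was left out); the number called higher was 0 throughout. Over all genes, 344 higher and 186 lower became 671 and 715 with DESeq2 and apeglm (48.4% of calls higher, beside 64.9%), 94 and 49 with spike-in scaling, 147 and 55 with glmTreat, 190 and 90 at an adjusted p under 0.05, 162 and 74 with filterByExpr, 11 and 0 with the replicate block, and 71 to 347 and 19 to 409 with 1 library left out. *Drd2* had a log2 fold change of 0.0615 with the replicate block, and between -0.54 and 0.0616 with 1 library left out, positive without control pool 2. Spike-in scaling moved the median of all genes to -0.23, and with it *Gnao1* to -0.0303, *Kctd16* to -0.22 and *Gnaq* to -0.12; *Kctd16* ran from -0.11, without exposed pool 1, to 0.34 with 1 library left out. The cause of these changes was not tested. With the block, *Gpr27* had a log2 fold change of -4.56 (edgeR, adjusted p = 0.298). Both conditions were handled on each of 3 days, but the labels do not say which pool number belongs to which day. The deviations of pools with the same number correlated at 0.05 for pool 1 and -0.08 for pool 3. With 2 exposed pools these deviations mirror each other, so the correlations cannot show whether pools of the same number share a day. The block also leaves 5 libraries little from which to estimate the spread between pools, and it serves as an alternative only. *Gpr27* was not called with filterByExpr (edgeR, adjusted p = 0.128). Chosen genes with fewer than 140 counts could not be compared at this depth.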
